A study of Mus musculus with 4 samples.

Results

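Interferon-inducible GTPases were followed in single cells from the ascites of mice with ovarian tumors. The set held 10 genes of 29835 in the joined matrices: Irgm1, Irgm2 and Igtp, Iigp1, Tgtp1 and Tgtp2, and Gbp2, Gbp3, Gbp4 and Gbp7. All 10 had UMIs (unique molecular identifiers, each standing for 1 captured RNA molecule) in all 4 libraries. The genes were chosen on their levels in these same libraries, mainly a higher level with anti-PD-1, so the treatment contrasts below are a description of that choice and not a test of it.

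Mouse ID8 ovarian surface epithelial cells with a Trp53 knockout (Trp53-/-), also transduced with a near-infrared fluorescent protein, were injected into the peritoneal cavity of female C57BL/6NCrl mice. The tumor cells engrafted for 7 days, and dosing then went on each week until ascites reached about 3 mL. Controls were given DMSO and an IgG antibody, the BTYNB group BTYNB and the IgG antibody, the anti-PD-1 group DMSO and a PD-1 blocking antibody, and the combination group BTYNB and the blocking antibody. BTYNB is a small-molecule inhibitor of the RNA-binding protein Igf2bp1, and PD-1 is an inhibitory receptor of T cells. The labels give 50 mg/kg BTYNB and 100 ng antibody per dose, whereas the published methods give different amounts. All groups carried the Trp53-deficient line in an immunocompetent host, and ascites cells of several animals were pooled into 1 library per group, so neither the spread between animals nor a p-value can be given. Every interval below is a 95% interval that covers counting error only.

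Immunity-related GTPases and guanylate-binding proteins are among the most strongly induced products of interferon-gamma in mouse cells. Interferon-gamma, made mainly by T and NK cells, acts through a receptor with Jak kinases, and its target promoters carry GAS elements and ISRE elements, of which Irf1 binds the latter. The proteins attack the vacuoles in which some pathogens live. Irgm1, Irgm2 and Igtp (Irgm3) are regulators that keep the other GTPases inactive on the cell's own membranes. Iigp1 (Irga6), Tgtp1 and Tgtp2 (both Irgb6) are effectors that coat the vacuole, and the guanylate-binding proteins Gbp2, Gbp3, Gbp4 and Gbp7 load beside them.

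The 8 genes with a promoter entry each carried at least 1 kind of interferon-related motif. The choice of genes did not use promoter sequence, but it was made within a family known for its induction by interferon. The comparison with all genes is therefore a description and not a separate test. Nor are the 8 genes independent cases. Over 39 bases around the motifs, Igtp and Irgm2 were identical at 38 and Tgtp1 and Tgtp2 at 36. RefSeq promoter windows on GRCm38.p6 were held for 8 of the 10 genes, and the 250 bases before the start were searched on both strands for an ISRE-like motif (GAAA, any 2 bases, GAAA) and a GAS-like motif (TTC, any 3 bases, GAA). The ISRE-like motif was present for 8 of the 8 genes and for 3.46% of all 27025 genes in the table. The GAS-like motif was present for 5 of the 8 and for 8.13% of all genes, and both together for 5 of the 8 and 0.4% of all genes. The GAS-like motif was not found for Irgm1, Gbp2 and Gbp3. Iigp1 and Gbp4 had no entry. A match describes the letters of the window and is not evidence that a factor binds there.

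In Igtp, Irgm2, Tgtp1 and Tgtp2 the GAS-like motif lay just before the ISRE-like motif. The windows below run 5′ to 3′ along the gene's strand, with the bases of any match in capitals. Igtp is at chr11:58199496-58199534 (plus strand), Irgm2 at chr11:58214887-58214925 (plus), Tgtp1 at chr11:48992311-48992349 (minus) and Tgtp2 at chr11:49064270-49064308 (minus).
Igtp: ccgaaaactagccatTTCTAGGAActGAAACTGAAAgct
Irgm2: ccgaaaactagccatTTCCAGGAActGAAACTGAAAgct
Tgtp1: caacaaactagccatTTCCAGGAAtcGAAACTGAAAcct
Tgtp2: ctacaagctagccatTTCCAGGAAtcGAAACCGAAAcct
Over these 39 bases Igtp and Irgm2 were identical at 38 positions and Tgtp1 and Tgtp2 at 36, while Igtp and Tgtp1 were identical at 32.

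The other genes carried the ISRE-like motif without a neighboring GAS-like motif. Irgm1 held 2 overlapping copies, at chr11:48871426-48871465 (minus strand). In the guanylate-binding protein genes the motif ran on the opposite strand, so it reads as its reverse complement: Gbp2 at chr3:142620589-142620628, Gbp3, with 2 overlapping copies, at chr3:142559984-142560023, and Gbp7 at chr3:142530268-142530307 (all plus). Gbp7 also held 2 GAS-like motifs further upstream, outside the window shown. Gbp3 had a second annotated start whose window held neither motif.
Irgm1: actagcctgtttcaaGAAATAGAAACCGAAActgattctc
Gbp2: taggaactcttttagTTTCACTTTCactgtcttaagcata
Gbp3: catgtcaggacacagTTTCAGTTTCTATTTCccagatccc
Gbp7: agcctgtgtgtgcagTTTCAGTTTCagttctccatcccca

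Sequence shared between genes limits some of the counts. In the GENCODE vM21 transcripts, 83.2% of the 31-base words of Tgtp1 also occur in Tgtp2 and 89.2% of those of Tgtp2 in Tgtp1, so the split of reads between them is uncertain and their sum is given beside them. Igtp and Irgm2 overlap on the same strand and share 15.9% of the words of Igtp and 9.16% of those of Irgm2. Gbp4 overlaps Gbp8 and Gbp9 on the same strand. The remaining members shared at most 5.64% of their words with another member.

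Cells were placed in gates by UMIs of marker genes. The tumor gate required at least 5 UMIs of Krt7, Krt8, Krt18, Krt19 and Wt1 and 0 of Ptprc (CD45). It held 7114 cells of the control library, 3606 of BTYNB, 10923 of the anti-PD-1 library and 4369 of the combination. It was divided by a score, the UMIs of Cd24a, Gkn2 and Krtdap, into cells below 5 (low score) and cells at or above 5 (high score). There were 485 high-score cells in control, 433 in BTYNB, 2771 with anti-PD-1 and 631 with the combination. Cells with 4 to 6 UMIs, near that limit, numbered 404, 258, 770 and 394 in the same order. The myeloid gate (at least 3 UMIs of Lyz2 and Csf1r and at most 2 keratin UMIs) held 292, 3134, 384 and 1258 cells. The T gate (at least 2 UMIs of Cd3d, Cd3e and Cd3g) held 22, 2481, 30 and 158 cells, and the B gate (at least 3 UMIs of Cd79a and Cd79b) 31, 3475, 39 and 286.

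Libraries held 78603888 to 114600397 UMIs, and 0 to 4 cell indices were shared between any 2 of them. The smallest deposited cell had 869 UMIs in BTYNB and 3533 to 5115 in the other libraries. The T and B gates carried tumor RNA. In the combination library 39.2% of T-gate and 59.8% of B-gate cells had more than 2 keratin UMIs, against 4.03% and 7.8% in BTYNB. The tumor markers Msln, Upk3b and Lgals7 reached 74.5% to 84.1% of their tumor-gate level in the combination B gate, and 1.97% to 17% of it in the 4 myeloid gates. Lymphocyte values are therefore also given for cells that passed only 1 gate and had at most 2 keratin UMIs. Levels are given as CPM, the UMIs of a gene scaled to the same total in every gate and library.

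The 4 treatment groups differed in the summed level of the 10 GTPases in low-score tumor cells. It was 719 CPM (712 to 725) in control, 704 CPM (696 to 712) in BTYNB, 1352 CPM (1342 to 1361) with anti-PD-1 and 1056 CPM (1047 to 1066) with the combination. The intervals of control and BTYNB met at 712 CPM, and both libraries with the PD-1 antibody lay above them. Among 3000 UMIs per cell, the variance of GTPase UMIs over their mean was 3.25 in low-score control and 4.49 in low-score BTYNB cells. Poisson intervals do not cover this spread between cells, so control and BTYNB are not read as different. In high-score tumor cells the order was another: 641 CPM (622 to 660) in control, 697 CPM (682 to 712) in BTYNB, 469 CPM (461 to 478) with anti-PD-1 and 905 CPM (887 to 923) with the combination. As gated, the anti-PD-1 library thus held both the highest and the lowest tumor level. High-score cells were not alike between libraries: Cd24a, Gkn2 and Krtdap summed to 2357 CPM with anti-PD-1 and to 420 to 611 CPM in the others. At a score of 5 to 9 alone, anti-PD-1 was at 807 CPM, above control at 658 CPM and BTYNB at 751 CPM. In myeloid cells the sum was 1065 CPM (1016 to 1115) in control, 941 CPM (927 to 956) in BTYNB, 1561 CPM (1503 to 1622) with anti-PD-1 and 998 CPM (978 to 1018) with the combination. Over the 16 groups of gate and library with at least 50 cells, anti-PD-1 myeloid cells were first and anti-PD-1 high-score tumor cells last. The neighbors whose intervals overlapped were the third and the fourth (control myeloid and combination low-score), the fifth to seventh (combination myeloid, combination B and BTYNB myeloid), the eighth and ninth (combination high-score and combination T), and the positions from low-score control through BTYNB T and low-score BTYNB to high-score BTYNB.

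**Figure D1:**
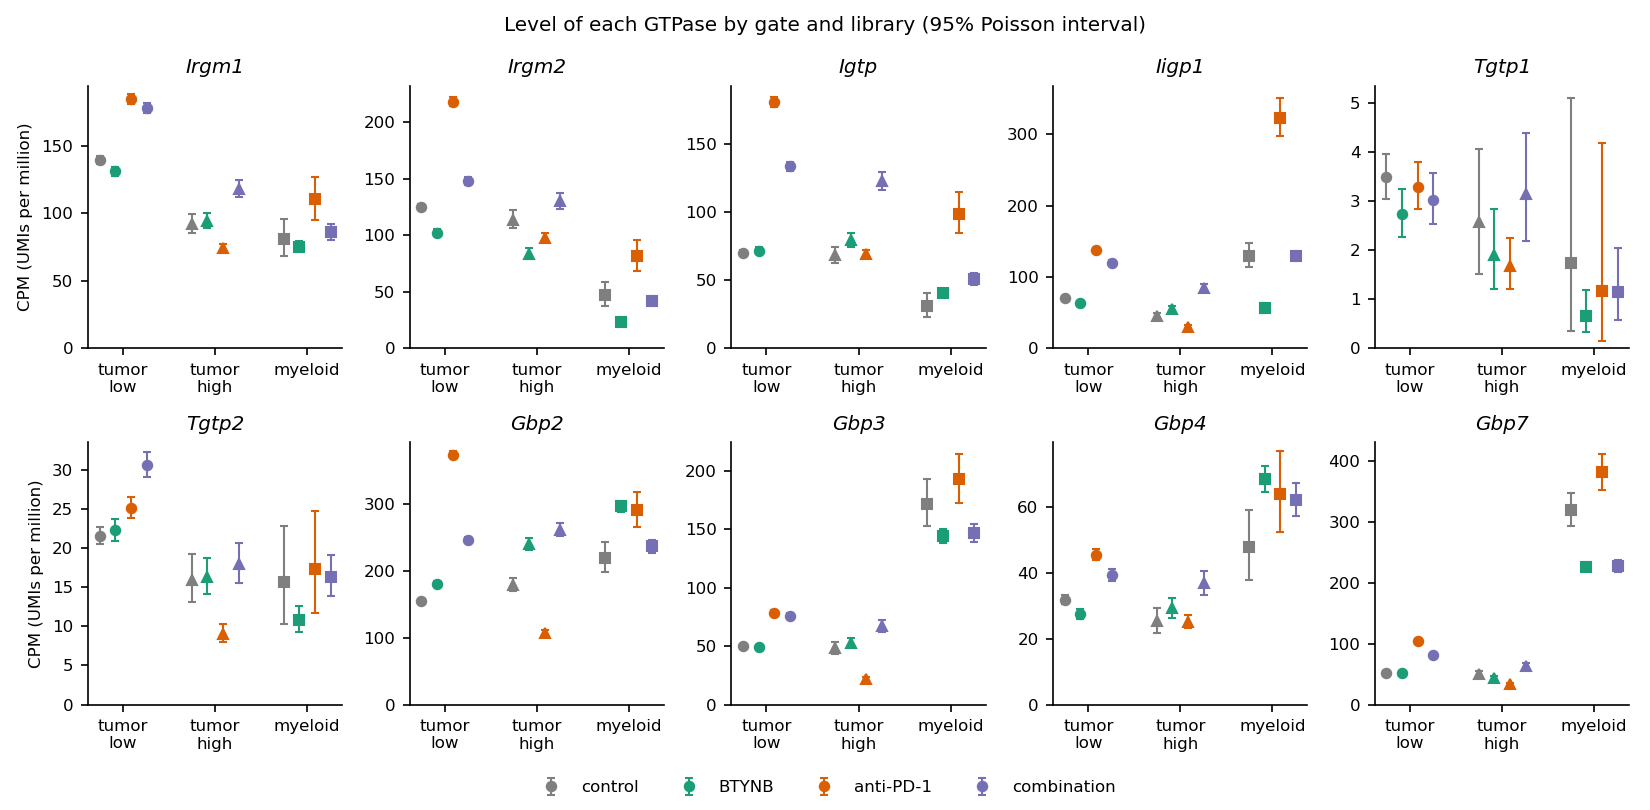
Level of each GTPase (y axis, CPM, from 0) in low-score tumor, high-score tumor and myeloid cells (x axis), 1 point per library with its 95% Poisson interval. In low-score tumor cells the anti-PD-1 library is highest for 8 of the 10 genes, and in high-score cells it is the lowest for 8.

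Among the regulators, Igtp was at 69.9 CPM in control, 73.3 in BTYNB, 146 with anti-PD-1 and 132 with the combination over all tumor-gate cells. Both libraries with the PD-1 antibody lay well above both libraries without it. On the log2 scale anti-PD-1 exceeded control by 1.05 (1.02 to 1.11), and the combination exceeded BTYNB by 0.83 (0.79 to 0.90). In low-score cells alone Igtp reached 181 CPM with anti-PD-1, and in high-score cells of the same library it was 69.2 CPM. Irgm2 was at 124, 98.3, 180 and 145 CPM in control, BTYNB, anti-PD-1 and combination. It had the lowest log2 ratio of the set for BTYNB against control, -0.33 (-0.38 to -0.28). Irgm1, which also protects blood-forming cells during infection, differed least among the 3 regulators: it was at 135, 123, 150 and 166 CPM, and it was highest in combination. Its log2 ratio for anti-PD-1 against control was 0.15 (0.12 to 0.19) over all tumor-gate cells and 0.41 (0.37 to 0.45) in low-score cells.

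Among the effectors, Iigp1 was at 67.5 CPM in control, 62.3 in BTYNB, 104 with anti-PD-1 and 113 with the combination in the tumor gate. Its level with the PD-1 antibody was above that without it whether or not BTYNB was given, with log2 ratios of 0.62 (0.58 to 0.68) and 0.85 (0.80 to 0.92). Tgtp2 was at 21.1, 21.1, 20.2 and 28.3 CPM, so combination stood apart and the other 3 lay within their intervals. Tgtp1 was at 2.56 to 3.4 CPM in the 4 libraries, with intervals that overlapped between neighbors. Summed as 1 gene, Tgtp1 and Tgtp2 were at 24.5, 23.7, 23 and 31.3 CPM. Tgtp stands for T cell-specific GTPase. The sum was 21.1 CPM in the BTYNB T gate, which carried tumor RNA, and 25.1 CPM in low-score tumor cells of that library. Among 1000 UMIs per cell, Tgtp2 was found in 2.2% (1.66% to 2.86%) of the BTYNB T gate. The share was 2.28% (1.7% to 3%) in its T cells that passed 1 gate only. In its low-score tumor cells it was 2% (1.54% to 2.55%), and these intervals overlapped.

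Among the guanylate-binding proteins, Gbp2 was at 158 CPM in control, 193 in BTYNB, 291 with anti-PD-1 and 249 with the combination in the tumor gate. Its log2 ratio for BTYNB against control, 0.29 (0.25 to 0.33), was the highest of the 10. Gbp7 was at 52.1, 50.5, 81.6 and 78.1 CPM, with control and BTYNB overlapping. Gbp3 was at 50.1, 49.9, 60.8 and 73.7 CPM and Gbp4 at 31.2, 27.9, 39.1 and 38.7 CPM. For Gbp3 the combination library was the highest, and for Gbp4 the 2 libraries with the PD-1 antibody overlapped.

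Counted over the 10 genes in the tumor gate, 0 were at least 1.5-fold higher and 0 at least 1.5-fold lower with BTYNB against control (all genes tested: 3.6% higher and 3.21% lower), and their median log2 ratio was -0.08. With anti-PD-1 against control 4 were at least 1.5-fold higher (all genes: 5.8%), Igtp, Gbp2, Gbp7 and Iigp1, with Iigp1 at 0.62 just inside and Irgm2 at 0.54 just outside, and the median was 0.43 beside -0.07 over 13094 genes. With combination against BTYNB 3 were higher (all genes: 0.395%), Iigp1, Igtp and Gbp7, all 10 had a ratio above 0, and the median was 0.51 beside -0.01 over 12418 genes. With combination against anti-PD-1 over the whole gate, 0 of the 10 were at least 1.5-fold higher and 0 lower (all genes: 4.27% and 5.55%). The median was 0.04, but the genes moved in opposite directions. The ratios ran from -0.32 to 0.46, with the intervals of 4 genes above 0 and of 4 below it. Each library enters 2 of the 4 contrasts, so contrasts that share a library are not separate measurements. With cells under 5115 UMIs left out, the count for anti-PD-1 against control fell from 4 to 2.

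**Figure D2:**
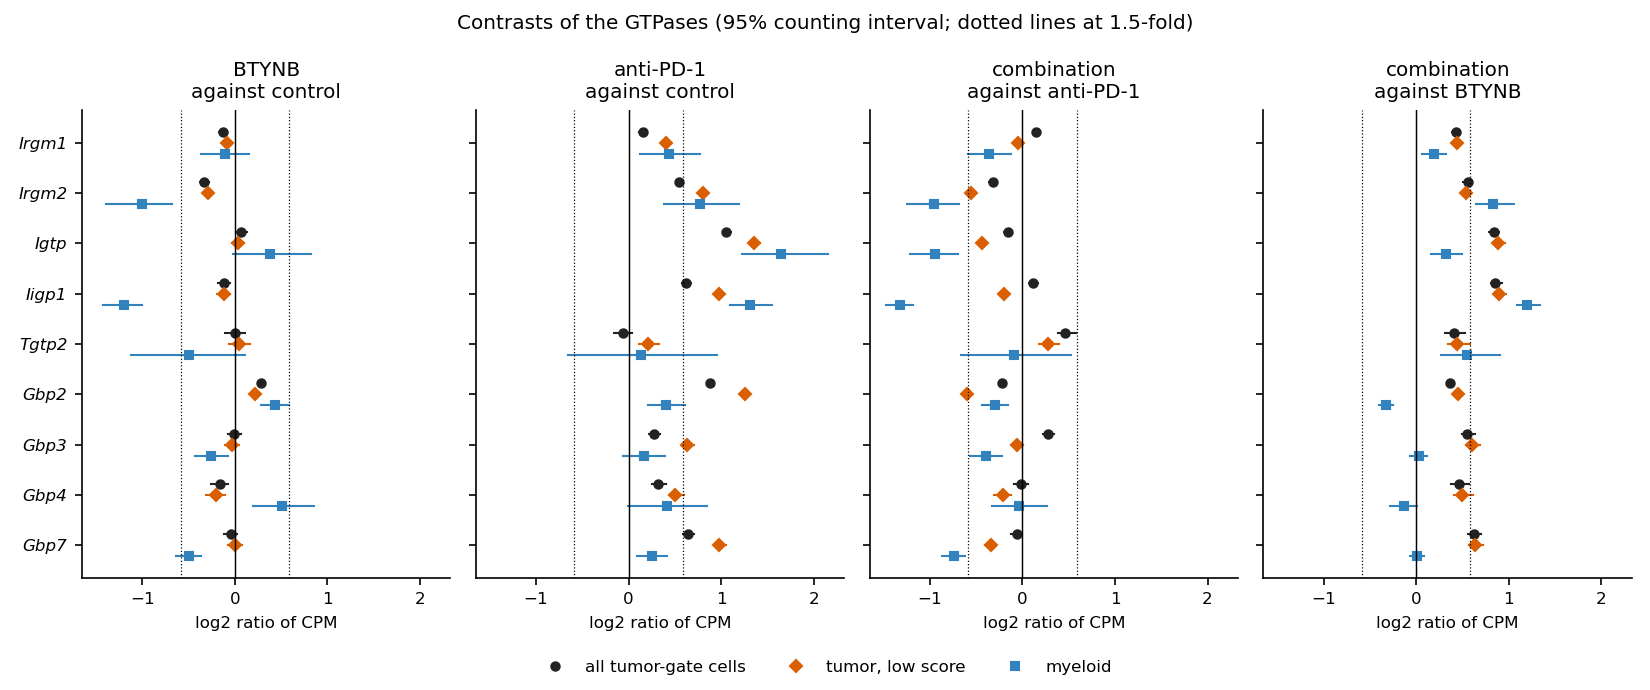
Log2 ratio of CPM (x axis) for 9 of the 10 GTPases (y axis; Tgtp1, with few UMIs, is left out) in the 4 contrasts, for all tumor-gate cells, low-score tumor cells and myeloid cells, with 95% counting intervals and dotted lines at 1.5-fold. Ratios of tumor cells sit near 0 for BTYNB against control and to the right for anti-PD-1 against control and combination against BTYNB.

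Low-score cells alone gave a wider contrast with anti-PD-1. Against control 6 of the 10 were at least 1.5-fold higher (all genes: 3.52%), and the median log2 ratio was 0.72 beside -0.03 over 12572 genes. The 6 were Igtp at 1.36 (1.32 to 1.42), Gbp2 at 1.26 (1.23 to 1.30), Iigp1 at 0.97 (0.93 to 1.04), Gbp7 at 0.97 (0.93 to 1.05), Irgm2 at 0.80 (0.77 to 0.85) and Gbp3 at 0.63 (0.58 to 0.71). With combination against BTYNB 4 were higher (all genes: 0.491%), Iigp1, Igtp, Gbp7 and Gbp3. Combination was below anti-PD-1 in these cells: the median was -0.20, 9 of the 10 ratios lay below 0, and 1 gene, Gbp2, was at least 1.5-fold lower (all genes: 2.29%). Tgtp2 was the exception, at 30.7 CPM in combination and 25.2 CPM in anti-PD-1.

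The difference between libraries with and without the PD-1 antibody was therefore set side by side with and without BTYNB, in low-score cells. The log2 ratio of combination against BTYNB minus that of anti-PD-1 against control was -0.81 (-0.87 to -0.76) for Gbp2, -0.47 (-0.55 to -0.39) for Igtp, -0.34 (-0.44 to -0.25) for Gbp7 and -0.27 (-0.34 to -0.20) for Irgm2. It was 0.23 (0.07 to 0.38) for Tgtp2, and the intervals of the other 5 genes, Irgm1, Iigp1, Tgtp1, Gbp3 and Gbp4, included 0. Over all tumor-gate cells the calls were partly others: the difference was 0.27 (0.21 to 0.33) for Irgm1, 0.23 (0.15 to 0.31) for Iigp1, 0.28 (0.19 to 0.37) for Gbp3 and 0.14 (0.02 to 0.26) for Gbp4, while the intervals of Irgm2, at 0.01, and Gbp7, at -0.02, included 0. Gbp2 at -0.51 (-0.56 to -0.46) and Igtp at -0.22 (-0.29 to -0.15) stayed below 0 and Tgtp2 at 0.46 (0.32 to 0.61) above it. The macrophage and monocyte markers in low-score cells summed to 33.3 CPM in control, 39.5 in BTYNB, 82 with anti-PD-1 and 107 with the combination, beside 9358 to 16823 CPM in the myeloid gates. Their part in the tumor-cell levels was not tested.

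The score divided the anti-PD-1 tumor cells more than those of any other library. In anti-PD-1, 10 of the 10 GTPases were at least 1.5-fold lower in high-score than in low-score cells (all genes: 23.5%), with a median log2 ratio of -1.38 beside -0.17 over 12325 genes. Iigp1 was at 30 CPM in high-score and 138 CPM in low-score cells, a log2 ratio of -2.17 (-2.31 to -2.10). Gbp3 was at 21.9 and 78.4 CPM and Gbp2 at 108 and 374 CPM. The smallest differences were those of Tgtp1 at -0.68 and Gbp4 at -0.84. In control the median was -0.22 with 2 genes lower (all genes: 7.16%), Iigp1 and Irgm1. In combination it was -0.18 with 2 genes lower (all genes: 11.6%), Tgtp2 and Irgm1. In BTYNB it was -0.23 with 0 genes lower (all genes: 5.79%).

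Between score bins the anti-PD-1 level stepped down from a score of 1 on. The summed level was 1361 CPM at a score of 0, 1395 at 1, 1288 at 2 to 4, 807 at 5 to 9, 388 at 10 to 19 and 291 (281 to 301) at 20 or more, over 4730, 1809, 1613, 869, 785 and 1117 cells. No 2 neighboring intervals overlapped, and the level was slightly higher at a score of 1 than at 0. Combination was at 1075, 1019, 1048, 931, 895 and 808 CPM over the same bins, so it lay below anti-PD-1 up to a score of 4 and above it from 5 on. Control was at 709, 711, 757, 658 and 537 CPM over the bins from 0 to 10 to 19, highest at 2 to 4. BTYNB was at 711, 667, 721, 751 and 687 CPM, highest at 5 to 9. Anti-PD-1 lay above both control and BTYNB at 5 to 9 and below both at 10 to 19. A higher score needs more UMIs: the median depth in anti-PD-1 was 6090 UMIs per cell at a score of 0 and 9801 at 20 or more. Over quartiles of depth the low-score cells of that library were at 1431, 1454, 1376 and 1241 CPM. The part of depth in the differences between bins was not tested.

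**Figure D3:**
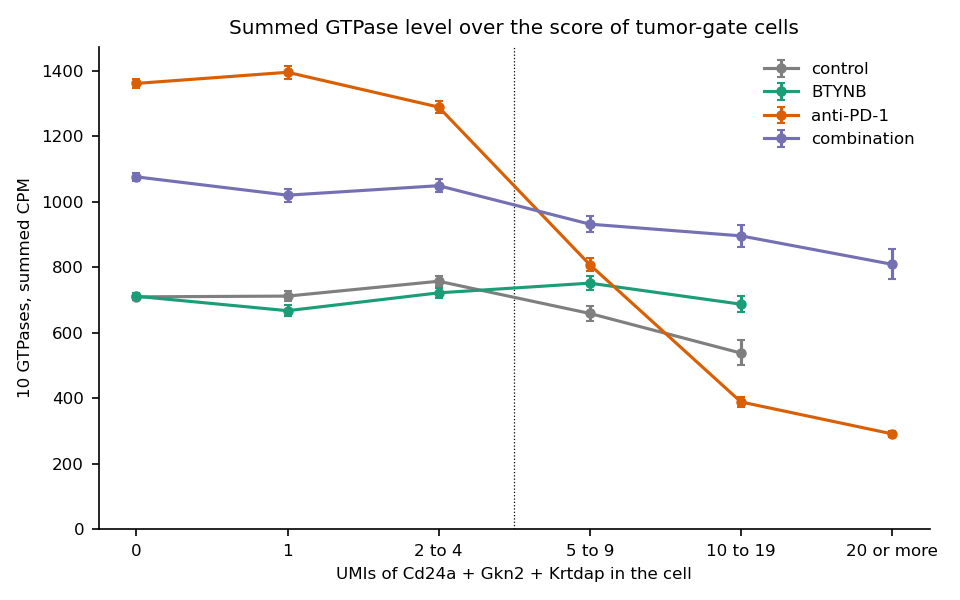
Summed level of the 10 GTPases (y axis, CPM, from 0) over bins of the score of tumor-gate cells (x axis, UMIs of Cd24a, Gkn2 and Krtdap in the cell), 1 line per library with 95% Poisson intervals; bins with under 50 cells are not drawn and the dotted line marks the limit of 5 UMIs. The anti-PD-1 line starts highest, at 1361 CPM, and ends lowest, at 291 CPM.

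Other markers moved with the score in anti-PD-1. Dcn, the matrix proteoglycan decorin listed among the fibroblast markers, was at 277 CPM in its low-score and 62 CPM in its high-score cells, against 276 to 377 CPM in the high-score cells of the other libraries. Ccr7, a chemokine receptor listed among the dendritic markers, was at 10.3 CPM in the low-score and 114 CPM in the high-score cells, against 9.01 to 11.3 CPM in the high-score cells of the others. The 5 dendritic markers summed to 115 CPM there against 9.72 to 13.6 CPM, while the other 4 dendritic markers, Flt3, Xcr1, Clec9a and Cd209a, were at 0.117 to 0.311 CPM. The 8 tumor markers summed to 4476 CPM there and to 3956 CPM in the low-score cells. The part of these genes in the GTPase levels was not tested.

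In the summed level of myeloid cells anti-PD-1 was highest and BTYNB lowest, as in low-score tumor cells. Control lay above combination here, but their intervals overlapped. With anti-PD-1 against control 3 genes were at least 1.5-fold higher (all genes: 3.96%), Igtp, Iigp1 and Irgm2. Iigp1 was at 130 CPM in control, 55.9 in BTYNB, 324 with anti-PD-1 and 129 with the combination. Anti-PD-1 stood far above and BTYNB far below the other 2, which overlapped. Igtp was at 30.9, 40.4, 98.6 and 50.7 CPM and Irgm2 at 47.2, 23, 81.2 and 41.5 CPM. Both were highest with anti-PD-1. The log2 ratio against control was 1.65 (1.22 to 2.15) for Igtp and 1.31 (1.09 to 1.55) for Iigp1, from 53 and 223 UMIs in control.

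Guanylate-binding proteins of myeloid cells were closer together. Gbp7 was at 320, 226, 381 and 228 CPM in control, BTYNB, anti-PD-1 and combination. The 2 libraries with BTYNB overlapped and lay below the other 2. Gbp2 was at 219, 297, 291 and 237 CPM, and Gbp3 at 172, 144, 193 and 147 CPM. Gbp2 was thus lowest in control and combination, which overlapped. Gbp4 was at 47.7 to 68.4 CPM, lowest in control.

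Against control, BTYNB myeloid cells had 0 members at least 1.5-fold higher (all genes: 12.6%) and 3 lower (all genes: 13.6%), Iigp1, Irgm2 and Tgtp1, of which Tgtp1 rested on 3 UMIs in control. Against anti-PD-1, combination had 4 lower (all genes: 8.12%), Iigp1 at -1.32 (-1.47 to -1.18), Irgm2 at -0.95 (-1.25 to -0.68), Igtp at -0.95 (-1.22 to -0.70) and Gbp7 at -0.74 (-0.87 to -0.62). All 10 ratios lay below 0. Against BTYNB, combination had 2 higher (all genes: 5.9%), Iigp1 at 1.19 (1.08 to 1.33) and Irgm2 at 0.83 (0.65 to 1.06). Of the 10 members 8 to 9 had at least 100 UMIs in 1 of the 2 libraries, depending on the contrast.

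The make-up of the myeloid gates differed between libraries as well. Neutrophil markers (S100a8, S100a9 and Retnlg) summed to 389 CPM in control, 1813 in BTYNB, 16.8 with anti-PD-1 and 12.5 with the combination, and the 7 macrophage and monocyte markers to 13518, 9358, 16823 and 12350 CPM. Dendritic markers summed to 63.5, 352, 58 and 448 CPM. Tumor RNA in these gates differed too. In the same order Msln reached 10.1%, 2.93%, 17% and 6.51% of its tumor-gate level. Upk3b reached 6.97%, 2.07%, 15.2% and 5.95%, and Lgals7 10.7%, 1.97%, 10.5% and 3.83%. The part of these markers and of tumor RNA in the myeloid differences was not tested. A change in cell make-up and a change within cells cannot be told apart here.

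Tumor and myeloid cells differed in which members gave the UMIs. Guanylate-binding proteins gave 40.4% to 44.5% of the GTPase UMIs in low-score tumor cells and 59.5% to 78.1% in myeloid cells. These are shares of UMIs, not divided by transcript length. Folds between gates were taken, like the log2 ratios, after 1 CPM was added to both levels. Within each of the 4 libraries Gbp7 was 2.76-fold to 6.02-fold higher in myeloid than in low-score tumor cells, and Gbp3 1.94-fold to 3.37-fold higher. Irgm2 went the other way, at 0.233-fold to 0.383-fold of the tumor level, and Igtp was at 0.384-fold to 0.569-fold. Iigp1 depended on the library: it was 2.33-fold higher in myeloid cells with anti-PD-1, 1.85-fold higher in control, at 1.07-fold with the combination and at 0.874-fold in BTYNB.

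**Figure D4:**
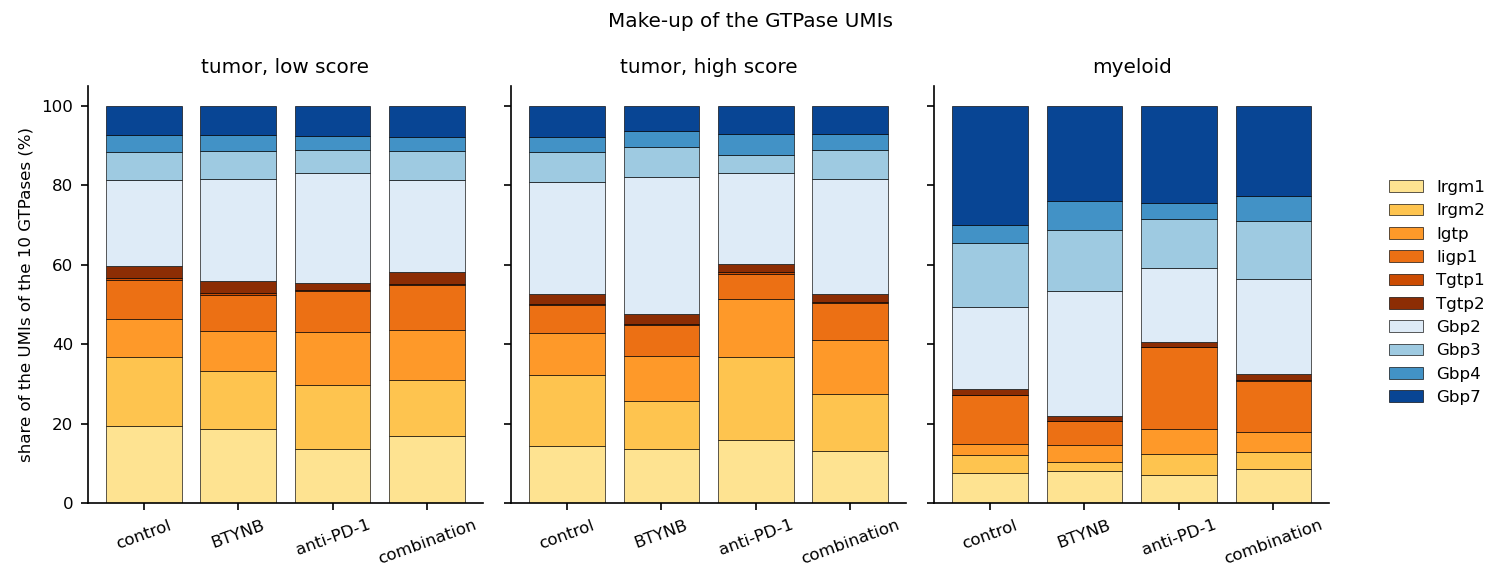
Share of the UMIs of the 10 GTPases that each gene gave (y axis, percent) in low-score tumor, high-score tumor and myeloid cells of the 4 libraries, with regulators and effectors in yellow to brown and guanylate-binding proteins in blue. The blue part is 40.4% to 44.5% in low-score tumor cells and 59.5% to 78.1% in myeloid cells.

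Lymphocytes could be compared between combination and BTYNB only, since the other gates held under 50 cells. In BTYNB T cells that passed 1 gate only, Gbp4 was at 92.2 CPM, 3.26-fold its low-score tumor level (again with 1 CPM added to both), and Gbp7 at 189 CPM, 3.56-fold. Irgm2 was at 32.4 CPM, 0.324-fold the tumor level. B cells of the same kind had the least: Iigp1 was at 11.5 CPM, 0.192-fold its tumor level, Irgm2 at 20 CPM, 0.204-fold, and the 10 genes summed to 417 CPM (402 to 433).

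The lymphocyte contrast changed when cells with keratin UMIs or several gates were left out. In the whole T gate 1 gene, Irgm2, was at least 1.5-fold higher in combination than in BTYNB (all genes: 15.7%), with a median log2 ratio of 0.34. In the 52 combination and 2221 BTYNB cells that passed 1 gate only, the median was -0.56. There 1 gene was higher and 5 were lower (all genes: 17% and 23.8%). Without Tgtp1, which had 0 UMIs in combination, the median was -0.40 with 4 lower. Igtp there was at 33.5 CPM in combination (12 UMIs) and 76 CPM in BTYNB. In the whole B gate 8 genes were higher in combination (all genes: 10.3%), and in the 64 and 3030 cells that passed 1 gate only 5 were higher (all genes: 13.4%), Gbp7 with 196 and 98.5 CPM, Gbp2 with 135 and 64.9 CPM, Iigp1, Gbp3 and Igtp. These combination cells held 212 UMIs of the 10 genes in T and 249 in B cells, so depth limits the values. Scaling by the median of ratios shifted the T contrast by 0.15 on the log2 scale.

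The GTPases were spread over many cells. After each cell was thinned to 1000 UMIs, 44.8% (43.6% to 46.0%) of low-score tumor cells in control had a UMI of at least 1 of the 10 genes. The share was 42.7% (41.0% to 44.5%) in BTYNB, 62.6% (61.5% to 63.6%) with anti-PD-1 and 58.1% (56.5% to 59.7%) in combination. In high-score cells it was 40.2%, 36.5%, 29.1% and 47.7%, and in myeloid cells 57.9%, 56.5%, 74% and 55.6%. Igtp was found in 5.96% of low-score control cells and 14.8% of low-score anti-PD-1 cells. Without thinning the share with any member was 89.9% to 98.7% in low-score cells. No gate was free of the family, so no cell type could serve as a background for free RNA; median depths before thinning ran from 6547 to 13753 UMIs in low-score cells.

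At 3000 UMIs per cell several members were often found together. Shallower cells, all in BTYNB, were left out, which kept 2681 low-score and 2307 myeloid cells of that library. In low-score cells the share with UMIs of 3 or more different members was 23.7% in control and 19.9% in BTYNB. It was 45.6% with anti-PD-1 and 36.2% with the combination. No member was found in 24.2%, 24.9%, 11.4% and 14.1% of the cells of the 4 libraries in that order. In high-score anti-PD-1 cells 11.9% had 3 or more and 47% had none. Single cells held up to 9 different members. The tenth of low-score cells with the most GTPase UMIs held 33% to 39.4% of them.

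**Figure D5:**
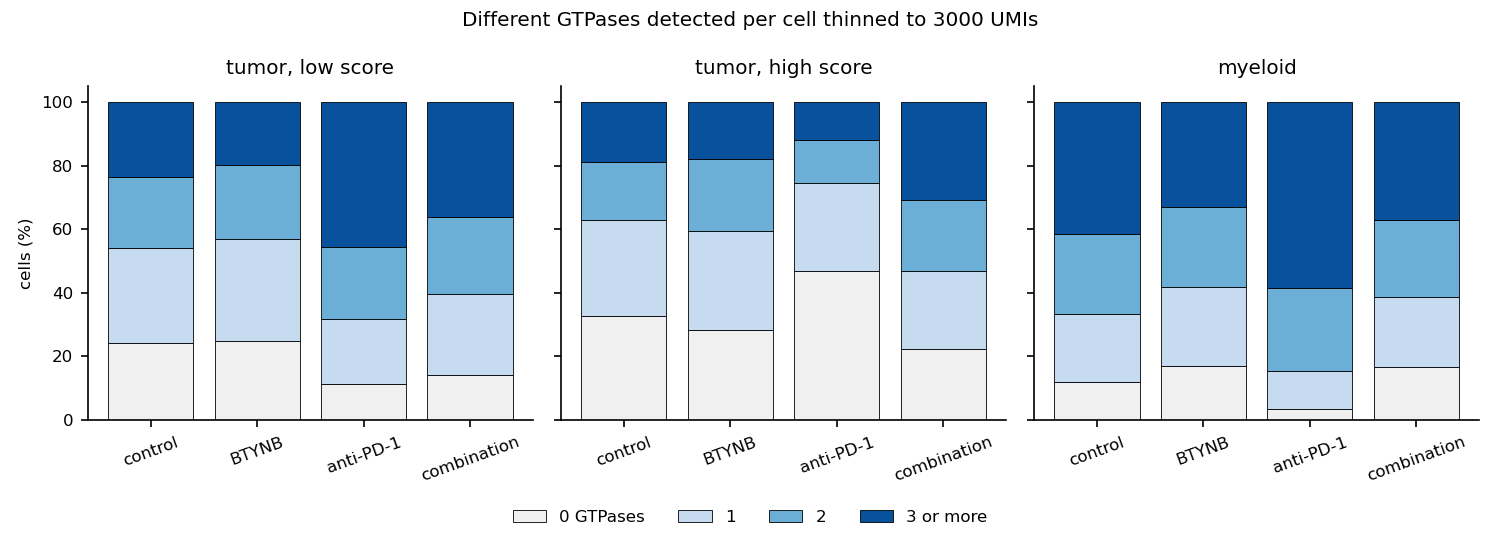
Share of cells (y axis, percent) with 0, 1, 2 or 3 or more different GTPases among 3000 UMIs per cell, for the 4 libraries in low-score tumor, high-score tumor and myeloid cells. The part with 3 or more is 45.6% in anti-PD-1 low-score cells, 11.9% in its high-score cells and 58.6% in its myeloid cells.

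Pairs of members fell in the same low-score cells more often than the product of their shares. The median ratio over pairs with at least 5 such cells was 1.43 in control, 1.39 in BTYNB, 1.29 with anti-PD-1 and 1.31 with the combination, and it was above 1 for 44 of 44, 39 of 39, 44 of 44 and 41 of 43 pairs. In high-score anti-PD-1 cells the median was 2.09, above 1 for 35 of 35 pairs. In myeloid cells it ran from 1.07 to 1.23. All pairs of a library share its cells, and the ratios are a description.

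Cells were also divided by a UMI of a gene of the interferon pathway, at the same 3000 UMIs per cell. Low-score cells with a UMI of Cd274, which encodes the PD-1 ligand PD-L1, had a higher summed GTPase level than cells without one in each of the 4 libraries. The fold was 1.66 in control, 3.44 in BTYNB, 1.9 with anti-PD-1 and 1.93 with the combination. For Ifit3, a type I interferon-stimulated gene, it was 1.79 to 3.64, over 20 to 123 cells with a UMI. It was 1.06 to 1.3 for Ifngr1, a chain of the interferon-gamma receptor.

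Interferon-gamma itself was seldom counted. Ifng had 6 UMIs in all control cells, 579 in BTYNB, 11 with anti-PD-1 and 77 with the combination. Its level in the BTYNB T gate was 37.7 CPM (33.4 to 42.3). In the combination T gate it was 42.3 CPM (32.1 to 54.7), and these intervals overlapped. The T gates of control and anti-PD-1 held 0 and 4 Ifng UMIs, too few to compare the level. Of the BTYNB UMIs of Ifng, 273 lay in cells that no gate took. The library with the highest GTPase level, anti-PD-1, had 0.124 CPM of Ifng over all cells (0.062 to 0.222), and BTYNB, with 5.17 CPM (4.75 to 5.6), had low-score tumor levels close to those of control. In sums over all cells, fewer T cells and less Ifng per cell cannot be told apart.

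Genes of related lists were read beside the 10. Of 26 other GTPases of the family 18 were in the files. In low-score cells 4 of the 11 with at least 100 UMIs were at least 1.5-fold higher with anti-PD-1 than in control (all genes: 3.52%): Gbp5 at a log2 ratio of 1.11, Gbp6 at 0.72, Gbp8 at 0.71 and the less studied F830016B08Rik at 0.62. Gm4951 was higher in combination than in BTYNB, at 0.86. Gbp2b, at low levels, was at 1.75 CPM with anti-PD-1 and 0.453 CPM in control over the whole gate. In high-score against low-score anti-PD-1 cells 9 of 11 were lower and 1 was higher (all genes: 23.5% and 8.97%). The one was Mx1, an antiviral dynamin-like GTPase, with 13.1 CPM in high-score and 0.987 CPM in low-score cells; over the whole tumor gate it was at 4.77 CPM with anti-PD-1 and 0.293 CPM in control.

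Interferon-gamma signaling genes and targets were in part higher with anti-PD-1 in low-score cells. Of 10 signaling genes tested 4 were at least 1.5-fold higher (all genes: 3.52%), among them Ciita, the activator of MHC class II genes, at 0.81, Irf8 at 0.68 and the feedback inhibitor Socs1 at 0.63. Of 11 other targets 6 were higher, among them Cd274 at 1.19, Cxcl9, a T cell chemokine, at 0.86, and the peptide transporter subunits Tap2 at 0.81 and Tap1 at 0.75. Of 14 type I interferon-stimulated genes 0 were higher and 0 lower (all genes: 3.52% and 1.82%), with a median of 0.07. Over the whole tumor gate Ifi44 and Rtp4 were lower with anti-PD-1 than in control, at -0.73 and -0.63. Combination was above anti-PD-1 for the chemokine Cxcl10, with 73.6 against 34 CPM, and for Ifit1 and Ifit2, at 0.76 and 0.78, and above BTYNB for Ifit3, at 0.78. In high-score against low-score anti-PD-1 cells 6 of 10 signaling genes, 8 of 11 targets and 11 of 14 type I genes were lower (all genes: 23.5%). The lists were fixed with earlier results of these data known.

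Over the 16 groups the mean log2 level of the 10 GTPases was compared with that of every other gene. Among the most alike were Ifi47 (Pearson r = 0.87), Dhrs7 (0.78), Lgals9 (0.78), Gbp6 (0.78), B2m (0.78), Plaat3 (0.78), H2-M2 (0.78), H6pd (0.77) and Tbc1d32 (0.76), out of 13580 genes with at least 100 UMIs in a group. Ifi47 is itself an immunity-related GTPase. The groups share libraries and gates, so these values only describe the likeness. Among the 10 members, Iigp1 followed their mean most closely (0.92) and Tgtp1 least (0.26).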

How the data were processed

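The members of the set, the gene lists and the gates were chosen with earlier results of these data known. The authors captured ascites cells with the BD Rhapsody HT system and ran the vendor's whole-transcriptome pipeline; the labels name the genome build GRCm39, and the counting annotation is not given in the sources used here. The deposited values are raw UMI counts per gene and cell, 1 matrix per library. The matrices were joined over 29835 genes in Python 3.11.15 (numpy 2.4.6, scipy 1.17.1, pandas 2.3.3). Cells with under 200 genes or over 33% mitochondrial UMIs (13 genes) were removed, which left 7834 cells in control, 18283 in BTYNB, 12019 with anti-PD-1 and 7042 with the combination. Scrublet (in scanpy 1.11.5) marked only 0.0127% to 2.3% of cells, so doublets were not removed. UMIs were summed per gate and library. Log2 ratios used CPM with a pseudocount of 1. Intervals are exact: Poisson for CPM, Clopper-Pearson for shares, and that of the ratio of 2 counts, without the pseudocount, for log2 ratios. Those of a difference between log2 ratios are normal approximations instead. Genes entered the background with at least 100 UMIs in 1 of the 2 libraries. A count of 0 allows up to 3 counts. All 10 members were to be named; of the lists, up to 5 genes with the largest change of at least 1.5-fold in a tumor contrast; and the 10 genes most like the mean, of which 1 is not reported here. Dcn, Ccr7, Gbp8, F830016B08Rik, Ciita, Socs1 and Tap1 were named after their values were seen. The calculation of log2 ratios and the thinning were checked on simulated counts with known changes.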

Additional observations from a re-analysis of the deposited data

How the results depend on the processing

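No paired analysis was possible because each group has 1 library and no test was made. Over 10 alternatives in the tumor gate the median log2 ratio stayed between 0.41 and 0.72 for anti-PD-1 against control, between 0.47 and 0.55 for combination against BTYNB and between -0.09 and -0.05 for BTYNB against control. Between combination and anti-PD-1 it ran from -0.20, in low-score cells alone, to 0.07. Leaving out cells under 5115 UMIs gave 2 genes at least 1.5-fold higher in the tumor gate with anti-PD-1 against control. In the myeloid gate it gave 1 lower with anti-PD-1 against control and 1 higher with combination against anti-PD-1. Both myeloid calls were Tgtp1, which had 0 UMIs in the 67 anti-PD-1 cells left, 2 in control and 11 in combination. Low-score cells alone gave 1 gene lower in combination than in anti-PD-1. A mean over cells gave 2 higher genes with BTYNB against control and 4 with combination against BTYNB in myeloid cells, and stricter gates gave 1 with BTYNB against control.

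Lymphocyte counts moved most. In the T gate, cells of 1 gate gave a median of -0.56 and 5 lower genes, and the other settings gave 2 higher (highest scrublet scores left out, cells from 5115 UMIs, mean over cells) or 3 higher (stricter gates), with 1 lower under the mean over cells and under stricter gates. In the B gate, cells of 1 gate and stricter gates gave 5 higher, cells from 5115 UMIs 3, and the mean over cells a median of 1.02; cells of 1 gate and the mean over cells gave 1 lower. Tgtp1 reversed to -0.21 in B cells of 1 gate, at 0 UMIs in combination and 1 in BTYNB.

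For high-score against low-score cells 2 limits were added after the data were seen. High-score cells from 10 UMIs on gave a median of -1.80 in anti-PD-1, 4 lower genes in combination and 1 in BTYNB; leaving out 4 to 6 UMIs gave 1 in BTYNB. A pseudocount of 5 CPM gave 0 lower genes in control and 1 in combination, cells from 5115 UMIs 1 in control, and mitochondrial UMIs up to 20% 1 in combination. The share of tumor-gate cells with any member was 75.1% in control, 73.3% in BTYNB, 79.6% with anti-PD-1 and 85.3% with the combination at 3000 UMIs, and 95%, 90.9%, 92.2% and 98.6% without thinning. With 1 library per group these values carry counting error only, and the causes of these moves were not tested.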

Other observations

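No gate took 414 cells of control, 6030 of BTYNB, 697 of the anti-PD-1 library and 1192 of the combination, and they entered no comparison of the GTPases. Their GTPases summed to 678 CPM in control, 723 in BTYNB, 1124 with anti-PD-1 and 820 with the combination. Igtp was at 59.4, 58.5, 143 and 85 CPM in that order, and Gbp7 at 65, 130, 102 and 86.9 CPM. Anti-PD-1 was thus the highest for Igtp and BTYNB for Gbp7.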
